A study of Mus musculus with 16 samples.

Results

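Chemokine ligands are small secreted proteins, and this account follows their transcripts in liver cells of c129/S3 mice sorted by 2 surface antigens. The members are all genes on the array whose name starts with Ccl, Cxcl, Cx3cl or Xcl and a digit, chosen by name and not by any measured value. There were 35 such genes, with 44 probes, among 28034 gene names on the array. Pf4 and Ppbp, 2 chemokines named otherwise, lie outside this rule. The scanner software placed 31 of the 35 well above background in a share of 0.5 or more of the samples in at least 1 group, and these 31 were tested with 23312 genes in all. Ccl22, Cxcl15, Cxcl17 and Xcl1 did not pass, and their values are given further on.

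Cells carrying both the MIC1-1C3 antigen (M) and CD133, the product of Prom1, are called M+133+, and cells lacking both are called M-133-. The study sorted them to isolate candidate progenitor cells of the adult liver. The groups were M+133+ cells of mice fed DDC (n = 4), M-133- cells of mice fed DDC (n = 4), M+133+ cells of untreated mice (n = 4) and M-133- cells of untreated mice (n = 2). DDC, a dihydrocollidine derivative, made up 0.1% of the diet for 2 weeks, injures hepatocytes and bile ducts and makes ductular cells expand. All mice were of the same strain with no engineered allele named in the labels, and the labels give neither ages nor whether animals were pooled. The sort was from non-parenchymal fractions after erythrocyte lysis, so M-133- cells are a mixture defined only by the absence of both antigens. The series describes the samples of a group as biological replicates without saying whether each came from its own animal, so p-values measure the spread between these samples.

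Chemokines bind G-protein-coupled receptors on leukocytes and set up gradients that steer cell migration. CC and CXC ligands are named for the spacing of their first cysteines, most inflammatory ligands are secreted on demand after NF-kB or interferon signalling, and homeostatic ligands are made constantly by stroma and endothelium. In liver they are made by hepatocytes, bile duct epithelium, stellate cells, endothelium and Kupffer cells, and they recruit neutrophils, monocytes and lymphocytes after injury.

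Every level is the log2 processed signal minus the 75th percentile of its array, and every difference is between group means of such levels. Over the 16 arrays that percentile was 602.8 to 2732.2 in intensity, and 60.3% to 77.3% of spots per array were well above background. Precision is limited by the number of arrays, and the M-133- untreated group had 2 samples. Prom1 checked the sort: its level was 1.50 ± 0.66 in M+133+ DDC cells and -6.48 ± 2.17 in M-133- DDC cells (SD, n = 4 each). It was 1.58 ± 0.31 in M+133+ untreated cells (SD, n = 4) and -8.04 ± 0.43 in M-133- untreated cells (SD, n = 2). Of 11 bile duct markers, 9 were higher in M+133+ cells in either treatment. Lower in M+133+ cells were 9 of 10 hepatocyte markers and 9 of 10 endothelial markers in either treatment, and 10 (DDC) or 5 (untreated) of 11 stellate and fibroblast markers. The mean level of the hepatocyte list was 1.01 in M+133+ DDC sample 2, and between -2.94 and -1.91 in the other M+133+ DDC samples. That of the 12 Kupffer cell and macrophage markers was -1.26 in M+133+ DDC sample 2 and between -4.81 and -3.43 in the others.

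2 samples had repeat arrays, which were averaged. For the 31 members the repeat arrays of M+133+ untreated sample 1 differed by a median of 1.01 and those of M-133- untreated sample 2 by a median of 1.57 on the log2 scale. The widest gaps were 5.36 for Cxcl9 in the first sample and 6.74 for Cxcl5 in the second. Each repeat array is given for some of the results that rest on these samples. Both slides that held the 2 untreated sorts carried a repeat array of M-133- untreated sample 2, so every within-slide sort difference in untreated livers rests on that 1 M-133- sample. Each of the 6 M-133- samples also shares the number that opens its title with 1 M+133+ sample of its treatment, and the labels do not say what that number marks.

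Where chemokine ligands differed by sort, most were lower in M+133+ cells. After DDC feeding 13 of 31 were called (limma's moderated test, p adjusted by Benjamini-Hochberg across the 23312 genes, under 0.05), 4 higher and 9 lower in M+133+ cells, beside 12.9% of all genes called (6.44% higher and 6.48% lower). In untreated livers 7 were called, 2 higher and 5 lower, beside 8.79% of all genes (3.63% higher and 5.16% lower). Groups that did not overlap, counted only where every sample of the brighter group was above background, were found for 4 members higher and 11 lower after DDC (6.71% and 6.94% of all genes) and for 3 higher and 13 lower in untreated livers (14.8% and 16% of all genes). Higher in M+133+ cells in either treatment were Cx3cl1 and Cxcl5, and lower in either treatment were Ccl9, Ccl11, Ccl19 and Cxcl9. The median difference of the 31 members was -2.09 after DDC and -2.14 in untreated livers, beside medians over all genes of 0.31 and -0.07. With normexp background correction the members' median after DDC was -0.90, beside 0.25 for all genes. The untreated medians were then -1.62 for the members and -0.52 for all genes, and 29.9% of all untreated calls were higher, beside 41.3% here. Both sort comparisons set different samples against each other but share each gene's estimate of spread, so their calls are not independent. No microarray slide held both sorts after DDC, so the sort difference after DDC can be adjusted for slide only through the untreated arrays. With slide as a fixed block 8 members were called after DDC, all 8 lower and none higher in M+133+ cells. The 8 include members not called without that block. The number of all genes called with it is given in the last paragraph, not split by direction. The calls after DDC of Ccl5, Ccl28, Cx3cl1, Cxcl5, Cxcl9, Cxcl10 and Cxcl16 were lost (limma adjusted p from 0.169 to 0.976), and in untreated livers those of Cx3cl1, Cxcl5 and Cxcl9 (0.0564 to 0.0876). With the shared title number as a fixed block the lost calls were those of Ccl5, Cx3cl1 and Cxcl16 after DDC (limma adjusted p from 0.0585 to 0.0981) and of Ccl3, Cx3cl1 and Cxcl5 in untreated livers (0.0502 to 0.0747). In these bulk samples, fewer cells of a type and less RNA per cell cannot be told apart.

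**Figure D1:**
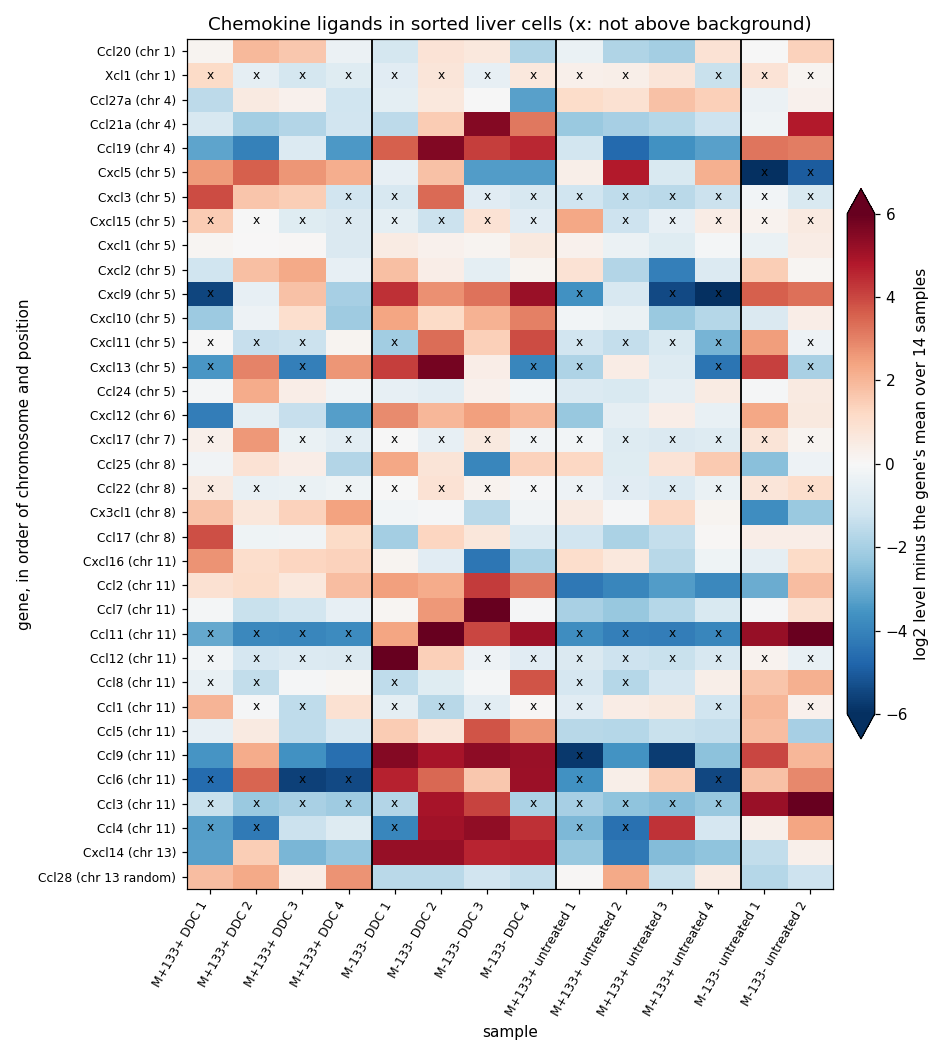
Levels of the 35 chemokine ligands (rows, by chromosome and position) in the 14 samples (columns), as the log2 level minus the gene's mean over the 14 samples; an x marks a sample whose arrays were not all well above background for that gene. Ccl9, Ccl11, Ccl19 and Cxcl14 are red in all 4 M-133- DDC samples, and Ccl28 is blue there; M+133+ DDC sample 2 is red for Ccl6 and Ccl9, where the other 3 M+133+ DDC samples are blue.

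Both membrane-anchored ligands, Cx3cl1 and Cxcl16, were higher in M+133+ cells after DDC. Cx3cl1 (fractalkine; probe at chr8:97306185-97306244, mouse build mm9) is tethered by a mucin stalk and is bound by Cx3cr1 on monocytes and macrophages. Its levels were 1.71, 0.66, 1.35 and 2.39 in M+133+ DDC cells, against -0.19, -0.08, -1.61 and -0.24 in M-133- DDC cells. In untreated livers they were 0.52, -0.08, 1.22 and 0.13 in M+133+ cells, against -3.72 and -2.23 in M-133- cells. Within a treatment the lowest M+133+ sample was above the highest M-133- sample. The difference was 2.06 ± 0.59 after DDC (SE; 4.16-fold, limma adjusted p = 0.0325) and 3.42 ± 0.72 in untreated livers (10.7-fold, limma adjusted p = 0.00789). Within the 2 slides that held both untreated sorts it was 1.82 and 2.92. The DDC call was lost without M+133+ DDC sample 1, 3 or 4 or M-133- DDC sample 3, and the untreated call without M-133- untreated sample 1. Slide or title number as a fixed block ended both calls, and the replicate number as a block ended the call after DDC (adjusted p = 0.0684).

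Cxcl16 (chr11:70269521-70272262, mm9), a scavenger receptor that is also the ligand of Cxcr6 on natural killer T cells and T cells, was 5.00, 3.35, 3.58 and 3.69 in M+133+ DDC cells. The M-133- DDC cells had 2.47, 1.62, -2.02 and 0.43. All 4 M+133+ samples were higher, by 3.28 ± 0.85 (SE; 9.73-fold, limma adjusted p = 0.0182). The call was lost without M+133+ DDC sample 1 (adjusted p = 0.0586), with slide as a fixed block (0.211) and with the title number as one (0.0585). A second probe gave 2.40 (limma adjusted p = 0.00436 with every probe fitted on its own, a check added after seeing the data). In untreated livers the levels overlapped, with 3.34, 2.92, 0.63 and 2.05 in M+133+ cells against 1.76 and 3.46 in M-133- cells, and a difference of -0.37 (95% interval -2.59 to 1.85). The sort difference of Cxcl16 was larger after DDC by 3.66 ± 1.34, which did not pass after adjustment (unadjusted p = 0.0159, limma adjusted p = 0.381).

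Cxcl5 was the one neutrophil-attracting ligand called by sort. Cxcl1, Cxcl2, Cxcl3 and Cxcl5 bind Cxcr2 on neutrophils and lie in 1 cluster with Cxcl15 (probes between 91190205 and 91334593 on chromosome 5, mm9). Cxcl5 was 1.53, 2.55, 1.63 and 1.14 in M+133+ DDC cells, against -1.51, 0.73, -4.40 and -4.38 in M-133- DDC cells. All M+133+ DDC samples were above all M-133- DDC samples, by 4.10 ± 1.24 (SE; 17.2-fold, limma adjusted p = 0.0407). Untreated M+133+ cells had -0.69, 3.71, -1.93 and 1.08, against -7.83 and -6.03 in M-133- cells, a fitted difference of 7.48 ± 1.52 (limma adjusted p = 0.00603). The 2 repeat arrays of M-133- untreated sample 2 gave -2.66, well above background, and -9.40, not above it, and the array of sample 1 was not above background either. With the arrays not above background raised to the lowest level called above it on each, a setting added after seeing the data, Cxcl5 was at least 54.1-fold higher in M+133+ untreated cells. Within slides the untreated difference was at least 6.85 on the slide of the dim array and 3.75 on the other. The call after DDC was lost when any 1 of 8 samples was left out, each of the 4 M+133+ DDC samples among them (limma adjusted p values up to 0.11). With slide as a fixed block the difference was 0.18 (limma adjusted p = 0.976). Quantile normalization, no detection filter, no intensity trend and the first repeat arrays alone also lost it, and 9 of 14 alternatives kept it. In untreated livers normexp background correction gave 4.00 with an adjusted p of 0.0715, and leaving out M-133- sample 1 gave 6.58 (adjusted p = 0.0985).

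Cxcl1 ran from 3.82 to 4.81 in M+133+ DDC cells, from 4.86 to 5.25 in M-133- DDC cells, from 3.97 to 4.91 in M+133+ untreated cells and was 4.29 and 5.13 in M-133- untreated cells. The repeat arrays behind the last value gave 6.12 and 4.13. The DDC groups did not overlap, M+133+ cells being lower. The sort difference was -0.53 after DDC (95% interval -1.14 to 0.08) and -0.27 in untreated livers (-1.02 to 0.48), and neither was called. Cxcl2 ranged from -6.25 to 0.15 over all 14 samples and was not called in any comparison. Cxcl3 was above background in M+133+ DDC samples 1, 2 and 3 (-3.75, -5.98 and -6.15) and in M-133- DDC sample 2 (-4.26), and in no untreated sample. It was not called in any comparison either.

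The stretches before the starts of Cxcl1, Cxcl2 and Cxcl3 are shown because these neighbours carry the same letters there while their levels across samples differed. Capitals mark matches to the NF-kB consensus on either strand, with overlapping matches joined. The sequences are from RefSeq (build GRCm38.p6), 110 bases up to the start, at chr5:90891135-90891244, chr5:90903789-90903898 and chr5:90785991-90786100, all on the plus strand.
Cxcl1: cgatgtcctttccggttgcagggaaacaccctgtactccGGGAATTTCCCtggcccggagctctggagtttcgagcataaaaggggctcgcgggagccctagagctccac
Cxcl2: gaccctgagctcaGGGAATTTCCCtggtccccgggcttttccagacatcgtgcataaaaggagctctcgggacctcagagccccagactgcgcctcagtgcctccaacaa
Cxcl3: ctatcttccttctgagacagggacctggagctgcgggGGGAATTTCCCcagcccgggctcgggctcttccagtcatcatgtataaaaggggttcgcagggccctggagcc
Within the 250 bases before the start, the NF-kB consensus was found in 6 of the 25 members with a promoter sequence (Ccl9, Ccl20, Cxcl1, Cxcl2, Cxcl3 and Cxcl10), and in 3.9% of all 32851 promoters searched the same way. A match is a description of letters, not of binding.

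The interferon-induced ligands of Cxcr3, the receptor of activated T cells and natural killer cells, were lower in M+133+ cells for 2 of 3 members after DDC and 1 of 3 in untreated livers. Cxcl9, Cxcl10 and Cxcl11 lie side by side (probes between 92752191 and 92790274 on chromosome 5, mm9). Cxcl9 was -8.12, -3.12, -0.85 and -4.61 in M+133+ DDC cells, against 1.77, 0.14, 0.65 and 2.57 in M-133- DDC cells. In untreated livers it was -6.24, -3.58, -8.04 and -8.95 in M+133+ cells, against 0.97 and 0.67 in M-133- cells. The repeat arrays of M+133+ untreated sample 1 gave -8.92, not above background, and -3.56, well above it. The groups did not overlap in either treatment. Only 3 of 4 M+133+ DDC samples and 1 of 4 M+133+ untreated samples had Cxcl9 above background on all arrays. The fitted difference was -5.46 ± 1.37 after DDC (SE, limma adjusted p = 0.0153) and -7.52 ± 1.68 in untreated livers (limma adjusted p = 0.0108). With the dim arrays raised as for Cxcl5, Cxcl9 was at least 29.6-fold lower in M+133+ cells after DDC and at least 85.7-fold lower in untreated livers. Within the untreated slides, where neither M+133+ array had it above background, the differences from the raised arrays were -8.20 and -6.45, the least they can be in size. With slide as a fixed block the calls were lost, at adjusted p = 0.367 after DDC and 0.058 in untreated livers. The untreated call was lost without either M-133- sample, at adjusted p values up to 0.103.

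Cxcl10 was above background in every sample. Its levels were -0.89, 0.99, 2.31 and -0.81 in M+133+ DDC cells, against 3.65, 2.46, 3.40 and 4.32 in M-133- DDC cells. All 4 M+133+ samples were lower, by 3.06 on the log2 scale (difference -3.06 ± 0.74, SE; 8.34-fold, limma adjusted p = 0.0125). Untreated cells overlapped, with -0.94 to 1.15 in M+133+ cells against 0.44 and 1.69 in M-133- cells, and the difference of -0.89 was not called (95% interval -2.83 to 1.05). Cxcl11 was above background in 5 of 14 samples, 3 of them M-133- DDC cells (-2.83, -4.75 and -2.27), and was not called.

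The 250 bases before the starts of Cxcl9 and Cxcl10 are shown because these neighbours were both lower in M+133+ DDC cells while only Cxcl10 holds the letters searched for. Capitals in Cxcl10 mark 1 GAAA pair (GAAA, any 2 bases, GAAA, the core letters of an interferon-stimulated response element) and 2 matches to the NF-kB consensus. The sequences are from RefSeq (GRCm38.p6), minus strand, at chr5:92328080-92328329 for Cxcl9 and chr5:92348890-92349139 for Cxcl10.
Cxcl9: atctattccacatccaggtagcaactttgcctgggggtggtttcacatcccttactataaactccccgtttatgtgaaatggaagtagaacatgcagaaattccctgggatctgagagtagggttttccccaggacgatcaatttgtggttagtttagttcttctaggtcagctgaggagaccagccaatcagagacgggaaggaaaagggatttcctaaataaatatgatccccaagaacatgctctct
Cxcl10: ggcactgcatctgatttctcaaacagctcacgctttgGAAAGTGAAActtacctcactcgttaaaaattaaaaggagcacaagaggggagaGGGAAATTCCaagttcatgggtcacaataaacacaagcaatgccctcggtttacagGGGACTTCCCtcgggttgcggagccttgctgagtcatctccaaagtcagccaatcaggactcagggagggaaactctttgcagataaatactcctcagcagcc
Among the 25 members with a sequence, the GAAA pair was found on either strand in Ccl19, Cxcl10 and Cxcl14, and in 2.98% of all promoters. No match in the Cxcl9 window says only that these letters are not in it.

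**Figure D2:**
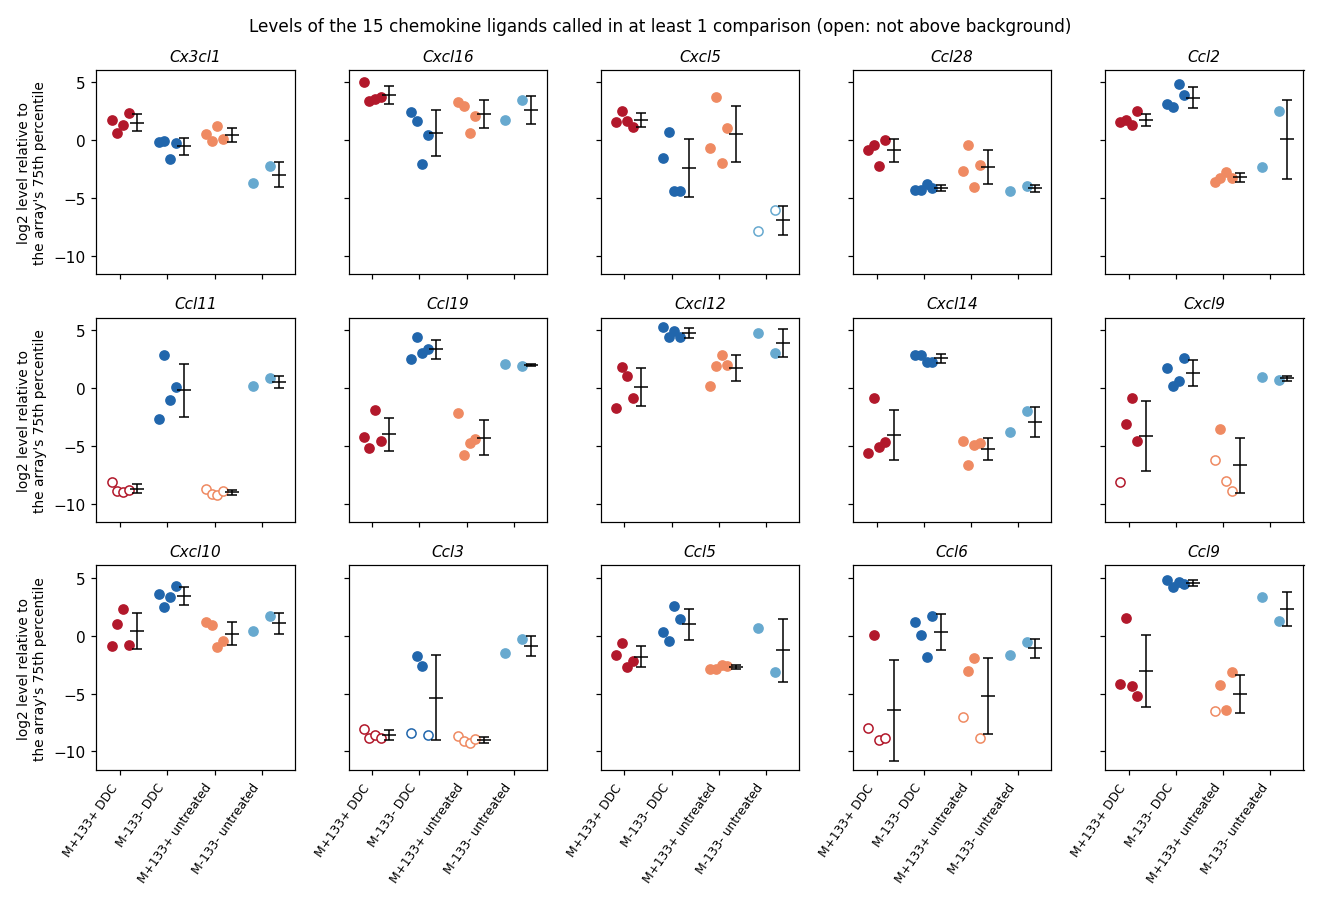
Log2 level of each of the 15 chemokine ligands called in at least 1 comparison, by group (M+133+ DDC, M-133- DDC, M+133+ untreated, M-133- untreated); points are samples, open where not all arrays were well above background, and bars are the mean and SD. Ccl11 is open in all 8 M+133+ samples, Ccl2 is higher in every M+133+ DDC sample than in any M+133+ untreated sample, and Cxcl14 stands apart in the 4 M-133- DDC samples.

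A second chromosome 11 cluster holds Ccl5, Ccl9, Ccl6, Ccl3 and Ccl4 (probes between 83339296 and 83478111, mm9), ligands that draw monocytes, macrophages and T cells. Ccl9 was -4.20, 1.53, -4.32 and -5.19 in M+133+ DDC cells, against 4.81, 4.25, 4.68 and 4.52 in M-133- DDC cells. Untreated M+133+ cells had -6.47, -4.25, -6.38 and -3.15, against 3.33 and 1.30 in M-133- cells. No M+133+ sample reached an M-133- sample of its treatment, although M+133+ DDC sample 2 stood well above its group. The difference was -7.61 ± 1.23 after DDC (SE; 195-fold, limma adjusted p = 0.000761) and -7.38 ± 1.50 in untreated livers (167-fold, limma adjusted p = 0.0062), with -3.41 within 1 untreated slide. On the other untreated slide the M+133+ array was not above background, and the difference from the raised array was -9.02, again the least it can be in size. The untreated call was lost without M-133- untreated sample 1. Without M+133+ DDC sample 2 the DDC difference was -9.13 (limma adjusted p = 1.16e-05).

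Ccl6, known in mice as a product of macrophages and myeloid cells, was above background in 1 of 4 M+133+ DDC samples. That was sample 2 at 0.08, beside -8.01, -9.02 and -8.82 in samples 1, 3 and 4, against 1.19, 0.05, -1.80 and 1.72 in M-133- DDC cells. The groups overlapped through sample 2, and the fitted difference was -6.73 ± 1.88 (SE, limma adjusted p = 0.0278). With the dim arrays raised it was at least 32.9-fold lower in M+133+ DDC cells. Without sample 2 no M+133+ DDC array had Ccl6 above background, and it was at least 100.5-fold lower (adjusted p = 0.000917). The call was lost when any 1 of 5 other samples was left out (adjusted p values up to 0.0855). In the same sample the hepatocyte and the Kupffer cell lists stood at the levels given above, and their part in these values was not tested. Untreated livers gave -7.01, -3.04, -1.94 and -8.87 in M+133+ cells against -1.65 and -0.52 in M-133- cells, which was not called.

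Ccl3 and Ccl4 (MIP-1 alpha and beta) and Ccl5 (RANTES) differed in where they could be measured. Ccl3 was not above background in any of the 8 M+133+ samples, and was -1.48 and -0.29 in M-133- untreated cells. It was therefore at least 60.5-fold lower in M+133+ untreated cells (means -8.99 and -0.88, limma adjusted p = 0.00482), and without M-133- untreated sample 2 the adjusted p was 0.0574. After DDC only M-133- samples 2 and 3 had it above background (-1.75 and -2.61), and the sort difference of -3.24 was not called. Ccl4 spread widely, from -8.78 to -5.31 in M+133+ DDC cells, from -8.47 to 0.77 in M-133- DDC cells and from -9.02 to -0.19 in M+133+ untreated cells, and was called in no comparison. Of the 12 Kupffer cell and macrophage markers, 1 was called after DDC, higher in M+133+ cells, and 3 in untreated livers, 2 of them higher. Most differences of that list were below 0 all the same. Those above 0 were 4 of 12 after DDC (median -1.19) and 3 of 12 in untreated livers (median -3.18). Among markers of B cells (5 tested), T and natural killer cells (8) and neutrophils (3) none was called by sort in limma, and their part in these values was not tested.

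Ccl5 was -1.69, -0.63, -2.71 and -2.15 in M+133+ DDC cells, against 0.36, -0.45, 2.58 and 1.48 in M-133- DDC cells. All M+133+ samples were lower, by -2.79 ± 0.85 as a difference (SE; 6.9-fold, limma adjusted p = 0.043). This call was close to the threshold and was lost when any 1 of 10 samples was left out (limma adjusted p values up to 0.114). It was kept in 7 of 14 processing alternatives. Quantile normalization, no detection filter, the replicate number as a block and fitting only the groups compared were among those that lost it. Its second probe gave -3.87 with an adjusted p of 0.107. In untreated livers Ccl5 was not called, at -1.47 (95% interval -3.70 to 0.75).

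Among ligands of Ccr2, the receptor that brings inflammatory monocytes into injured liver, none was called by sort in limma with the probe used. Ccl2, Ccl7, Ccl12 and Ccl8 share a cluster with Ccl11 and Ccl1 (probes between 81850650 and 81990395 on chromosome 11, mm9). Ccl2 was 1.30 to 2.52 in M+133+ DDC cells, below the 2.90 to 4.84 of M-133- DDC cells without overlap, but the difference of -1.90 was not called (limma adjusted p = 0.151). In untreated livers its difference was -3.29 (limma adjusted p = 0.0537). Ccl7 was -2.26, -3.49, -3.25 and -2.63 in M+133+ DDC cells against -2.03, 0.47, 4.21 and -2.23 in M-133- DDC cells, a difference of -3.01 with an adjusted p of 0.0943 in limma. A second probe of the same Ccl7 transcript gave -5.05, -5.13, -4.00 and -8.82 in M+133+ DDC cells against 1.06, 2.05, -0.31 and 0.14 in M-133- DDC cells. Its difference was -6.49 after DDC and -5.78 in untreated livers, and both passed when every probe was fitted on its own (limma adjusted p = 0.000441 and 0.0072). The 2 probes therefore disagree on the call. Ccl8 was above background in 9 of 14 samples and ran from -7.24 to -1.74. Ccl12 was above background only in M-133- DDC samples 1 and 2 (-0.92 and -6.55), and neither gene was called.

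Ccl11 (eotaxin-1, the Ccr3 ligand that attracts eosinophils; chr11:81876072-81876131, mm9) was not above background in any M+133+ sample. M+133+ DDC values ran from -8.98 to -8.13, against -2.68, 2.83, -1.07 and 0.05 in M-133- DDC cells. M+133+ untreated values ran from -9.23 to -8.77, against 0.17 and 0.87 in M-133- untreated cells. Ccl11 was at least 74.8-fold lower in M+133+ cells after DDC (means -8.72 and -0.22, limma adjusted p = 2.63e-05) and at least 160.2-fold lower in untreated livers (means -9.03 and 0.52, limma adjusted p = 0.000121). Such a bound sets the mean of the bright group against, for each array of the dim group, the lowest level called above background there or the probe's own level, whichever is higher. The sort calls of Ccl11 passed in all alternatives and with any sample left out.

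The other ligands of Ccr3, Ccr4 and Ccr8 gave no call. Ccl17, which attracts Ccr4-bearing T cells, was 0.36 in M+133+ DDC sample 1 and between -5.58 and -2.21 in the other 13 samples. That sample also had the highest mean of the stellate and fibroblast list among M+133+ samples (0.13, the others -3.37 to -0.84). It was highest there too for the bile duct (4.01), B cell (-2.30) and T and natural killer cell (-4.41) lists. In M-133- DDC samples the stellate and fibroblast list averaged 3.65 to 4.72, with Ccl17 between -5.58 and -2.21. The part of these lists in the Ccl17 values was not tested. Ccl24 (eotaxin-2) ran from -4.44 to -1.32 over all samples, highest in M+133+ DDC sample 2. Ccl1 was above background in 5 of 14 samples, none of them M-133- DDC cells. Ccl22 was above background in no sample.

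Of 5 homeostatic and lymphoid ligands tested, 3 were lower in M+133+ cells after DDC (Ccl19, Cxcl12 and Cxcl14) and 1 in untreated livers (Ccl19). Ccl19 (chr4:42250432-42250491, mm9) binds Ccr7 and guides dendritic and naive T cells. It was -4.27, -5.19, -1.93 and -4.57 in M+133+ DDC cells, against 2.48, 4.45, 3.03 and 3.40 in M-133- DDC cells. Untreated M+133+ cells had -2.21, -5.80, -4.77 and -4.37, against 2.07 and 1.94 in M-133- cells. The groups were apart in both treatments, by -7.33 ± 0.85 after DDC (SE; 161-fold, limma adjusted p = 5.06e-05) and -6.29 ± 1.04 in untreated livers (78.3-fold, limma adjusted p = 0.00152). Within untreated slides the difference was -2.59 and -5.80, and the repeat arrays of M+133+ untreated sample 1 gave -0.14 and -4.28. A second Ccl19 probe gave -4.61 (adjusted p = 0.00174) after DDC and -2.99 (adjusted p = 0.0943) in untreated livers.

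Cxcl12, the Cxcr4 ligand that retains stem cells and lymphocytes in their niches, was -1.70, 1.84, 1.05 and -0.87 in M+133+ DDC cells, against 5.29, 4.40, 4.89 and 4.44 in M-133- DDC cells (chr6:117131227-117131286, mm9). All M+133+ samples were lower, by -4.68 ± 0.74 as a difference (SE; 25.6-fold, limma adjusted p = 0.000676). A second probe, annotated to another Cxcl12 transcript, gave -5.80 (adjusted p = 0.00789). In untreated livers the groups did not overlap either, with 0.16, 1.88, 2.85 and 2.00 in M+133+ cells against 4.77 and 3.00 in M-133- cells, but the difference of -2.17 was not called (limma adjusted p = 0.191).

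Cxcl14, an atypical homeostatic ligand of epithelium and stroma, stood out in M-133- DDC cells (chr13:56390078-56390137, mm9). It was -5.62, -0.89, -5.10 and -4.67 in M+133+ DDC cells, against 2.89, 2.89, 2.21 and 2.29 in M-133- DDC cells. The difference was -6.64 ± 0.93 (SE; 99.6-fold, limma adjusted p = 0.000251), with M+133+ DDC sample 2 again the highest of its group. Untreated M+133+ cells had -4.63, -6.66, -4.95 and -4.78, against -3.83 and -2.02 in M-133- cells, and the difference of -2.33 was not called (limma adjusted p = 0.285). The 250 bases before its start are shown because they hold 1 of the 3 GAAA pairs found among members (capitals); RefSeq, GRCm38.p6, minus strand, chr13:56296552-56296801.
Cxcl14: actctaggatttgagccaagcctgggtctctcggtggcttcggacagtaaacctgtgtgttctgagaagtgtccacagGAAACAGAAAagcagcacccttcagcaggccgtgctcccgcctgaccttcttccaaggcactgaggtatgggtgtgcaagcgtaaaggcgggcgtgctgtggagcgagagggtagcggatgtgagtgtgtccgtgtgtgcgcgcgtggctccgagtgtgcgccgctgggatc

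Ccl21a, the other Ccr7 ligand, ran from -4.03 to -2.99 in M+133+ DDC cells and was -3.60, -0.47, 3.50 and 1.16 in M-133- DDC cells. Its difference of -3.64 missed the threshold (limma adjusted p = 0.0759), as did -4.06 in untreated livers (limma adjusted p = 0.142). The Ccl21a probe may also read the near-identical Ccl21b and Ccl21c copies. Cxcl13, which attracts B cells, was above background in 8 of 14 samples, from -8.95 to 1.17, and was not called.

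Of 4 epithelial and mucosal ligands tested, Ccl28 alone was called, higher in M+133+ cells after DDC. Ccl28 binds Ccr10 and Ccr3 and is made by epithelia. Its levels were -0.85, -0.42, -2.26 and 0.03 in M+133+ DDC cells, against -4.30, -4.33, -3.83 and -4.10 in M-133- DDC cells. The 4 M-133- samples lay within a narrow range and every M+133+ sample was above it, by 3.26 ± 0.76 (SE; 9.6-fold, limma adjusted p = 0.00942). Untreated M+133+ cells had -2.64, -0.42, -4.01 and -2.19, against -4.40 and -3.95 in M-133- cells, which overlapped and were not called (difference 1.86, limma adjusted p = 0.295). Its probe lies on a chromosome 13 sequence that mm9 leaves unplaced (366021 to 371070).

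Ccl20, the Ccr6 ligand, ran from -4.11 to -0.15 over all samples, Ccl25, the Ccr9 ligand, from -2.65 to 3.60, and Ccl27a from -5.10 to -0.06. None of the 3 was called in any comparison, and the Ccl27a probe may also read the near-identical Ccl27b. Cxcl17 was above background in M+133+ DDC sample 2 alone (-5.59), Cxcl15 in M+133+ untreated sample 1 alone (-5.67), and Xcl1, a product of T and natural killer cells, in M+133+ untreated sample 3 alone (-6.90).

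**Figure D3:**
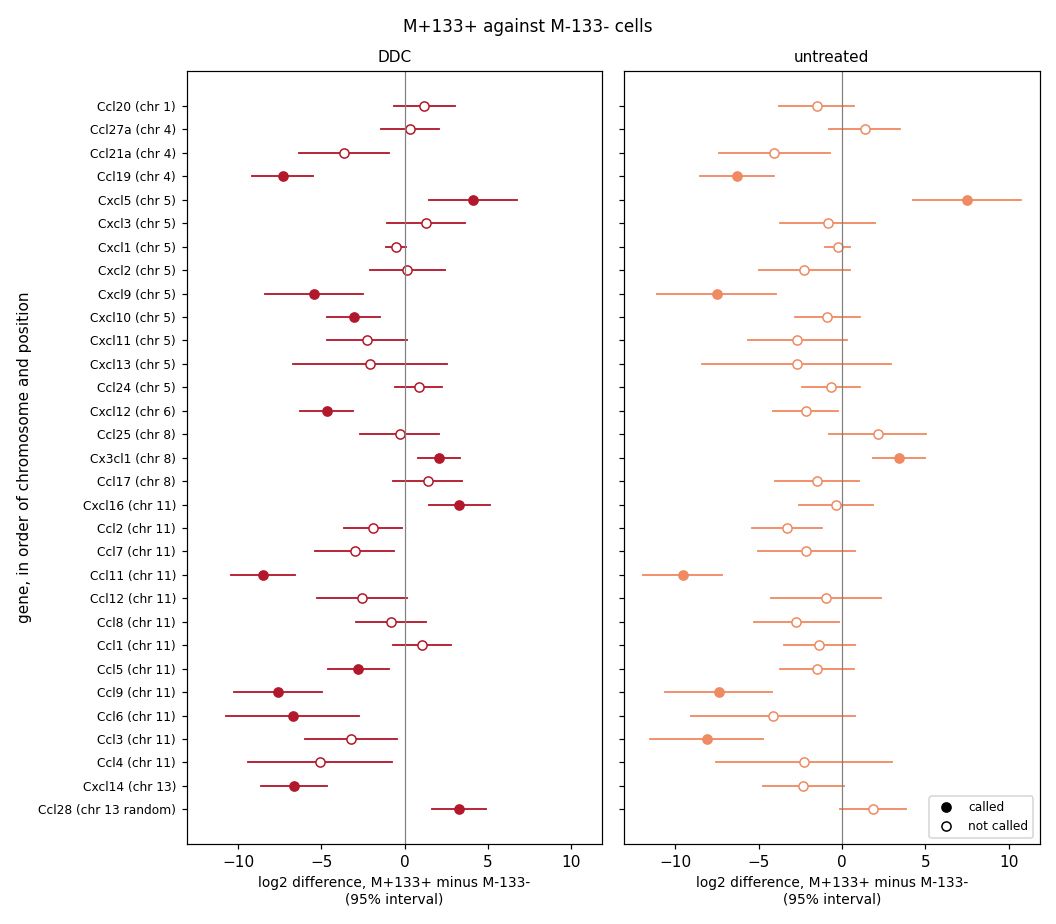
Log2 difference of M+133+ minus M-133- cells with its 95% interval for the 31 chemokine ligands tested, after DDC (left) and in untreated livers (right), in order of chromosome and position; filled points were called. After DDC 13 points are filled, 4 to the right and 9 to the left of 0; in untreated livers 7 are filled, 2 to the right and 5 to the left.

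Neighbouring ligands differed in their calls. In the chromosome 5 cluster of Cxcr2 ligands Cxcl5 was higher in M+133+ DDC cells while its neighbour Cxcl1 differed by -0.53. In the chromosome 11 cluster of Ccl2 only Ccl11 of 6 members was called by sort with the probe used, in either treatment. A second Ccl7 probe passed in both sort comparisons when fitted on its own, and Ccl2 was called for DDC in M+133+ cells. In the cluster of Ccl5, 3 of 5 were lower after DDC (Ccl5, Ccl6 and Ccl9) and 2 of 5 in untreated livers (Ccl3 and Ccl9). On chromosome 8 Cx3cl1 was called while Ccl17, probed next to it, was not.

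DDC feeding raised Ccl2 in M+133+ cells, the one member called in that comparison beside 0.24% of all genes (0.146% higher and 0.0944% lower). Ccl2 (MCP-1; chr11:81850650-81850709, mm9) is the main monocyte attractant and is induced by NF-kB. Its levels were 1.58, 1.73, 1.30 and 2.52 in M+133+ DDC cells, against -3.66, -3.28, -2.71 and -3.24 in M+133+ untreated cells. Every DDC sample was above every untreated sample, by 5.00 ± 0.81 (SE; 32.0-fold, limma adjusted p = 0.0202), and by 4.65 and 5.14 within the 2 slides holding both. The adjusted p was above the threshold when any of 4 samples was left out (at most 0.0754), and with slide as a fixed block it was 0.118. In M-133- cells Ccl2 was 3.12, 2.90, 4.84 and 3.88 after DDC, against -2.34 and 2.48 in untreated cells. Those groups did not overlap, but the difference of 3.61 ± 1.00 was not called (limma adjusted p = 0.114), and the repeat arrays of M-133- untreated sample 2 gave 4.95 and 0.02. The effects in the 2 sorts did not differ detectably (interaction 1.39, 95% interval -1.35 to 4.13).

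In M-133- cells Cxcl14 was the one member called after DDC, beside 1.02% of all genes (0.613% higher and 0.403% lower). The levels given above, 2.21 to 2.89 after DDC against -3.83 and -2.02 in untreated cells, did not overlap and differed by 5.49 ± 1.14 (SE; 45.1-fold, limma adjusted p = 0.0345). Within slides the difference was 6.72 and 3.78. The repeat arrays of M-133- untreated sample 2 gave -2.81 and -1.24, and with the second repeat arrays alone the call was lost. The call rested on 2 untreated samples and was lost when any 1 of 7 samples was left out, at adjusted p values up to 0.274; with slide as a fixed block the adjusted p was 0.108. Beside it, 2 of 11 stellate and fibroblast markers were called higher in M-133- DDC cells and all 11 differences were above 0 (median 1.74). The mean level of that list was 3.65 to 4.72 in M-133- DDC cells, against 1.52 and 1.70 in M-133- untreated cells. Of 11 bile duct markers 2 were also called higher. Of 10 endothelial markers none was called and 1 difference was above 0 (median -2.45), with mean levels of 0.49 to 3.16 in M-133- DDC cells, against 4.21 and 4.46 in M-133- untreated cells. The part of these markers in the Cxcl14 value was not tested. In M+133+ cells the DDC difference of Cxcl14 was 1.18 (95% interval -0.81 to 3.17). The interaction of -4.31 ± 1.47 had an unadjusted p of 0.0106 and did not pass adjustment (limma adjusted p = 0.338).

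The other members changed too little against their spread to be called. In M+133+ cells 26 of 31 differences were above 0, with a median of 0.94, beside a median of 0.06 over all genes. Among the 26 were Ccl3, Ccl11 and Ccl12 (0.41, 0.31 and 0.41), which were above background in no M+133+ sample. Cxcl3 passed the filter only through M+133+ DDC cells and Ccl12 only through M-133- DDC cells. The filter therefore favoured their differences above 0 in those cells (2.88 and 2.01). In M-133- cells 20 of 31 were above 0, with a median of 0.54, beside -0.36 over all genes. With normexp background correction that members' median was -0.04, beside -0.76 over all genes, and 41.3% of all calls in M-133- cells were higher; the share was 60.3% here and 75.5% with quantile normalization. The DDC and the sort comparisons share groups, so their counts are not independent. By the same count as above, members whose groups did not overlap in M+133+ cells were Ccl2 and Cxcl16 (higher) and Ccl27a (lower), beside 3.92% and 4.02% of all genes. Cxcl16 was 1.67 higher there (95% interval -0.14 to 3.48) and Ccl27a differed by -1.79 (95% interval -3.53 to -0.06), and neither was called. In M-133- cells 7 members were higher and 1 lower without overlap, beside 6.99% and 9.4% of all genes. There Cx3cl1 differed by 2.45 (limma adjusted p = 0.143), Cxcl10 by 2.39 (adjusted p = 0.262) and Ccl3 by -4.46 (adjusted p = 0.228). None of the 31 interactions of sort and DDC was called in limma, beside 0.257% of all genes called (0.0601% above and 0.197% below 0). An unadjusted limma p under 0.05 was found for 4 of the 31 (Ccl3, Cxcl12, Cxcl14 and Cxcl16) and for 2328 of all 23312 genes.

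**Figure D4:**
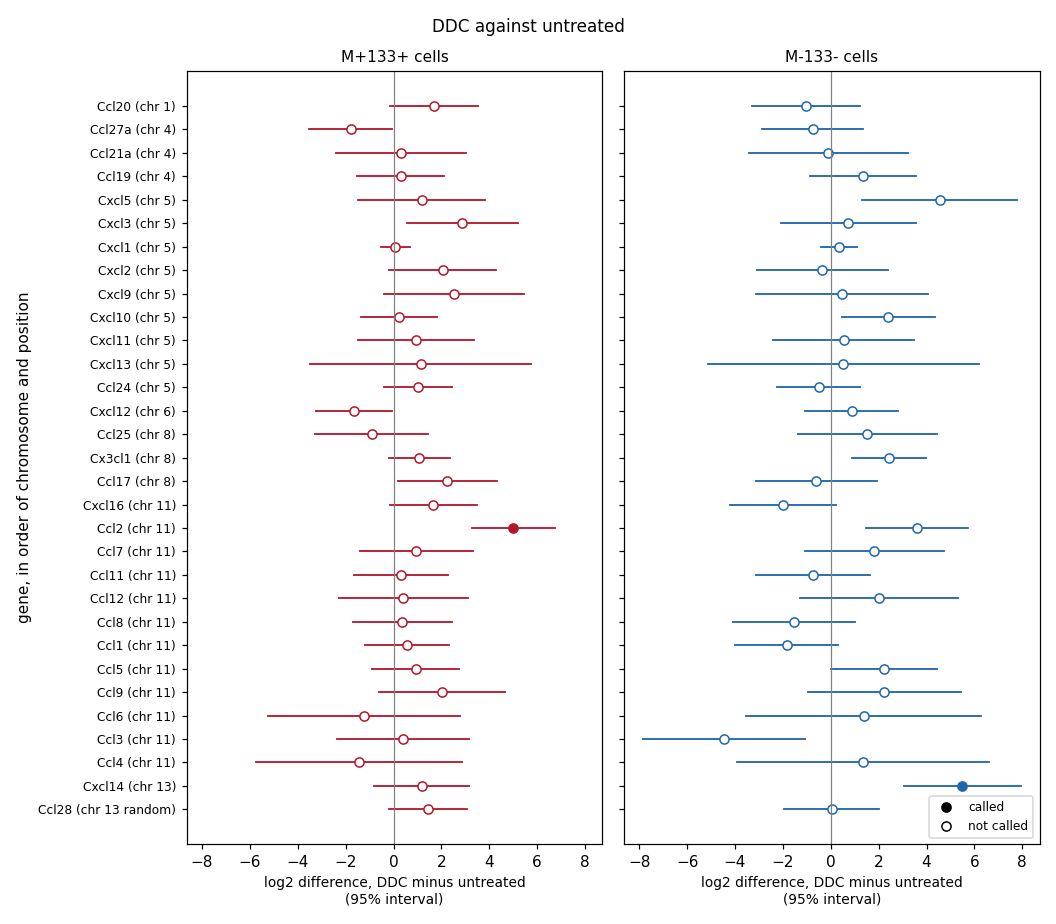
Log2 difference of DDC minus untreated with its 95% interval for the 31 chemokine ligands tested, in M+133+ cells (left) and M-133- cells (right), in order of chromosome and position; filled points were called. Ccl2 alone is filled in M+133+ cells and Cxcl14 alone in M-133- cells, and most intervals include 0.

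Receptors carry the chemokine signal into the responding cell. Of 19 chemokine receptors 15 passed the filter, and 0 were called by limma in the 4 comparisons and the interaction. Cxcr4 averaged -0.68 ± 1.54 in M+133+ DDC cells, -2.64 ± 2.90 in M-133- DDC cells and -2.66 ± 2.26 in M+133+ untreated cells (SD, n = 4 each), and -1.14 ± 3.17 in M-133- untreated cells (SD, n = 2). Cxcr6, the receptor of Cxcl16, averaged -4.94 ± 2.01 in M+133+ DDC cells and -1.10 ± 0.58 in M+133+ untreated cells, and that difference of -3.84 was not called (limma adjusted p = 0.197). Atypical receptors do not signal through G proteins, and some of them clear chemokines. Of 5 atypical receptors, 3 were lower in M+133+ cells after DDC (Ackr1 by -6.50, Ackr2 by -3.20 and Ccrl2 by -3.25) and 1 in untreated livers (Ackr1 by -8.00). Ackr1 is known from endothelium, whose markers were also lower in M+133+ cells, and their part in these values was not tested.

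Genes of the NF-kB and cytokine lists, some of them targets rather than regulators, gave mixed calls. Of 13 NF-kB pathway and feedback genes, 1 was called by sort, Relb, a subunit of the non-canonical pathway, which was higher in M+133+ DDC cells (2.14 ± 1.38 against -1.16 ± 2.51 in M-133- DDC cells, SD, n = 4 each; difference 3.30, limma adjusted p = 0.0431). In M+133+ cells Vcam1, an adhesion molecule under NF-kB control, was 2.33 higher after DDC (4.71 ± 0.39, against 2.38 ± 0.62 in untreated cells, limma adjusted p = 0.0202). Of 12 inflammatory cytokine genes tested, Tnf was higher in M+133+ DDC cells (-0.13 ± 1.39 against -5.37 ± 2.22 in M-133- DDC cells, difference 5.24, limma adjusted p = 0.00292). Il6 and Il33 were lower there, by -8.96 and -3.77 as differences. In M+133+ DDC samples 1, 3 and 4 Il6 was -8.02, -8.62 and -8.82. These levels lay below the lowest level called above background on those arrays, so the size of the Il6 difference is uncertain. In untreated livers Ltb was higher in M+133+ cells by 4.05 and Il1a lower, at -6.64.

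Of 10 genes of the interferon-gamma pathway, 4 were lower in M+133+ DDC cells and 1 higher, beside 6.48% and 6.44% of all genes. Irf1, the factor downstream of the receptor, was 3.23 ± 0.80 in M+133+ DDC cells and 4.70 ± 0.44 in M-133- DDC cells (SD, n = 4 each; difference -1.47, limma adjusted p = 0.0204). Gbp2, Gbp3 and Irf8 differed by -3.16, -4.97 and -3.57. The size of the Gbp3 difference is uncertain. In M+133+ DDC sample 1 Gbp3 was -8.06, below the lowest level called above background on that array (-5.84). The gene that was higher, Ifngr1, a chain of the receptor, differed by 1.30 (limma adjusted p = 0.0471) and is named after its value was seen. In untreated livers Irf8 alone of the 10 was called, at -6.32. Of 7 genes that process or anchor chemokines, Mmp2, a gelatinase that cleaves Cxcl12, was at least 84.9-fold lower in M+133+ DDC cells (limma adjusted p = 0.0001) and differed by -7.82 in untreated cells. The untreated difference is uncertain in size, because M+133+ untreated samples 1 and 3 lay at background levels (-8.64 and -8.75). Dpp4, a peptidase that trims several chemokines at their start, differed by -2.59 in untreated livers (limma adjusted p = 0.0322).

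The authors' deposited table gives fold changes and false discovery rates for the same 4 comparisons, with the sort folds as M-133- over M+133+. Turned to M+133+ over M-133-, all 20 member calls by sort had the same direction there, and so did the 2 calls after DDC. In the authors' deposited table the false discovery rate was above 5% for Cx3cl1 (5.17%), Cxcl5 (6.56%) and Cxcl10 (7.89%) in the DDC sort comparison and for Cxcl14 (5.64%) after DDC in M-133- cells. In the other direction, the authors' deposited table put 6 members not called here under 5% in the untreated sort comparison, all lower in M+133+ cells. They were Ccl8 (0.89%), Ccl7 (1.1%), Ccl21a (1.25%), Cxcl14 (3.23%), Ccl2 (4.12%) and Ccl6 (4.12%) in the authors' deposited table, and Ccl2, Ccl7 and Ccl8 are Ccr2 ligands. The authors' deposited table gave Ccl2 a 39.0-fold increase after DDC in M+133+ cells, at a rate of 0%.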

How the data were processed

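Liver cells were sorted by flow cytometry, and their amplified, Cy3-labelled cDNA was hybridised to 1-colour Agilent arrays, 16 for 14 samples. Per the file headers, the deposited spot intensity is the processed signal of Feature Extraction 10.5.1.1, background-subtracted within each array and not normalized between arrays. The authors' deposited table holds signed fold changes, treated here as a score, and, in percent, false discovery rates. The submitters' processing notes list limma without saying what it did.

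Levels were log2 intensities minus each array's 75th percentile; repeat spots, then repeat arrays, were averaged. A sample counted as above background only if all its arrays were. A probe was kept if 0.5 or more of 1 group's samples passed, and the brightest stood for its gene. limma 3.58.1 (R 4.3.3) fitted 4 group means over 14 samples with an intensity trend, and two-sided p-values were Benjamini-Hochberg adjusted over 23312 genes (called under 0.05). The fit was tested on simulated data. Probe coordinates are the files' (mm9). Of 41174 probes, 26690 were named by accession, 5189 by symbol and 952 by synonym in the RefSeq table. The other 8343 were not found there and kept the files' own name.

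Every member was accounted for; those called in any comparison were given by sample, and up to 4 called genes of each other list were named by smallest adjusted p. The members, lists and tests were chosen with earlier results of these data known. Alternatives covered background correction, normalization, filters, probe rule, variance model, slide, title prefix, replicate number, repeat arrays and each sample left out. The replicate numbers were not used as pairs in the main fit, and whether they mark pairs cannot be told from these data.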

Additional observations from a re-analysis of the deposited data

Results flagged for a closer look

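In 4 of 41 groups of 4 samples, 1 sample lay far from the other 3 (its gap exceeded Dixon's critical share of the group's range), and chance alone flags about 1 group in 20. M+133+ DDC sample 2 had Ccl6 at 0.0799, where the nearest of the other M+133+ DDC samples was at -8.01. The same sample had Ccl9 at 1.5279, where the nearest was at -4.20. M-133- DDC sample 3 had Cx3cl1 at -1.6104, below the other M-133- DDC samples, of which the nearest was at -0.24. M+133+ untreated sample 2 had Cxcl14 at -6.6579, below the other M+133+ untreated samples, of which the nearest was at -4.95.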

How the results depend on the processing

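None of the 22 member calls reversed; 273 of 306 alternatives and 263 of 308 fits with a sample left out kept the call. Ccl11 and Ccl19 (both sort comparisons) and Ccl9, Cxcl12 and Cxcl14 (sort, DDC) passed in every one. With slide as a fixed block 8 members were called by sort after DDC, 0 after DDC in M+133+ cells and 0 in M-133- cells; all genes gave 1143, 15 and 144, and the interaction 11. The replicate block gave 20 genes after DDC in M+133+ cells, 115 in M-133- cells (0 members) and 24 for the interaction. None of 18 same-numbered pairs correlated above 0.1 (-0.15 to 0.08). Of 6 pairs with a shared title prefix 1 did (-0.01 to 0.11), and of 48 pairs sharing neither 1 did. Such low values do not decide whether either label marks pairs. Title prefix as a fixed block gave 822 genes and 4 members by sort in untreated livers and 1 gene for the interaction; it could not be fitted for DDC against untreated. For DDC in M+133+ cells quantile normalization gave 138 genes, the stricter filter 91, the mean of probes 87 and no intensity trend 22; the first repeat arrays alone gave 0 members. The interaction gave 38 genes with normexp and 37 with no intensity trend, and fitting only the groups compared gave 38 genes for DDC in M-133- cells. The cause of these shifts was not tested. With a sample left out, genes and members called ranged from 818 to 2206 and 4 to 7 (sort, untreated; fewest without M-133- untreated sample 1), 2403 to 2963 and 8 to 15 (sort, DDC; fewest members without M+133+ DDC sample 1), 6 to 114 and 0 to 1 (DDC, M+133+), 73 to 282 and 0 to 1 (DDC, M-133-), and 18 to 105 and 0 to 0 (interaction). Dim probes limit Ccl3, Ccl6, Ccl11 and Cxcl9, whose M+133+ values often lay at background, and Cxcl5 in M-133- untreated cells.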
